A study of Mus musculus with 56 samples.

Results

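The 37 genes described here are a set of genes induced by type I interferon, chosen by name and found in all 3 deposited count tables, which share 43902 genes. By role they are 10 nucleic acid sensors and RNA-binding effectors (Oas1a, Oas2, Oas3, Oasl1, Oasl2, Ifih1, Eif2ak2, Ifit1, Ifit2, Ifit3), 4 signal and transcription factors (Irf1, Irf7, Irf9, Stat2) and 4 genes of the ISG15 system and TRIM proteins (Isg15, Usp18, Trim25, Trim30a). Another 7 are restriction factors (Mx1, Mx2, Rsad2, Cmpk2, Bst2, Ifitm3, Samhd1), 4 belong to the PARP9 complex and nuclear bodies (Parp9, Dtx3l, Parp14, Sp100) and 8 are other induced genes (Rtp4, Ifi27, Ifi27l2a, Ifi35, Ifi44, Xaf1, Lgals3bp, Lgals9). They lie on 15 chromosomes, with 6 on chromosome 11, 6 on chromosome 16, the 5 Oas genes on chromosome 5 and the 3 Ifit genes on chromosome 19.

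The study measured RNA of barrel cortex, the whisker area of somatosensory cortex, in mice at postnatal day 5, with 56 libraries. Ribosomes carrying an EGFP-tagged L10a protein were pulled down (TRAP), and both the bound RNA and the unbound rest of the lysate were sequenced. The astrocyte line, Aldh1l1::eGFPL10a, has the tag under the Aldh1l1 promoter and received no tamoxifen, with 5 control and 5 deprived libraries per fraction. The heterozygous microglial line, Cx3cr1CreErt2/+(Litt) with Eef1a1LSL.eGFPL10a/+, carries a tamoxifen-inducible Cre in 1 allele of Cx3cr1 that switches on the tag, with 4 control and 4 deprived libraries per fraction. The knockout line, Cx3cr1CreErt2/CreErt2(Litt) with Eef1a1LSL.eGFPL10a/+, has the Cre in both alleles, with 5 and 5 libraries per fraction. Both microglial lines received 50 µg tamoxifen on postnatal days 1 to 3, controls included. The right whiskers of all 3 lines were cauterised on postnatal day 4 and tissue was taken 24 h later, so that the left cortex was the deprived side and the right cortex of the same animals the control.

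Type I interferons bind the receptor IFNAR1/IFNAR2, which activates a transcription factor complex holding STAT2 and IRF9. The complex binds the interferon-stimulated response element in the promoters of target genes, whose products sense foreign nucleic acid, block viral replication and feed back on the signal. In the brain, microglia, the resident macrophages, hold a basal level of this response, and a small interferon-responsive group of microglia is known in the developing barrel cortex.

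Letters of the response element were found in part of the group, in 13 of the 28 members with a promoter at hand. At least 2 matches were found in 7 of them. The promoters of 4 of these 7 are shown because they cover sensors, the ISG15 system and a restriction factor. Each run is the 150 bases before the RefSeq start site on build GRCm38.p6, read 5′ to 3′ on the gene's own strand, with matches to GAAANNGAAA on either strand in capitals. Overlapping matches run together.
Oas1a (chr5:120907526-120907675, minus strand): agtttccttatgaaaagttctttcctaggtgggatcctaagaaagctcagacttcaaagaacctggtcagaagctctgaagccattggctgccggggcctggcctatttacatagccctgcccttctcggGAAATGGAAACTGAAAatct
Ifit1 (chr19:34640739-34640888, plus strand): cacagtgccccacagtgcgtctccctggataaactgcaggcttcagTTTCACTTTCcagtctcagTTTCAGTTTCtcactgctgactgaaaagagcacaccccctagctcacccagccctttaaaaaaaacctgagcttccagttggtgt
Isg15 (chr4:156200819-156200968, minus strand): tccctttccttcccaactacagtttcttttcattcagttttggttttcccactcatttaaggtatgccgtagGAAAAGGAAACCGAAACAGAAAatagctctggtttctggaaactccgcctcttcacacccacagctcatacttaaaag
Bst2 (chr8:71537473-71537622, minus strand): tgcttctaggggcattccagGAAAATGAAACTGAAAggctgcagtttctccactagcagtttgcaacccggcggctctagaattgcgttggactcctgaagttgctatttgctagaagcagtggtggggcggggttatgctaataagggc

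Promoter windows of 300 bases, from 250 before to 50 after the start site, were at hand for 28 of the 37 genes. GAAANNGAAA, searched on both strands, was found in 13 of these 28 (46.4%), against 1079 of 27025 genes with a window (3.99%). At least 2 matches were found in 7 of the 28 and in 72 of all genes. The 15 members without GAAANNGAAA include Oasl2, Oasl1, Irf7 and Trim25, and a missing match says only that these letters are not in this window.

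The libraries were compared per mouse wherever lines were compared, by summing the counts of a mouse's pieces of cortex: 4 heterozygous mice, 5 knockout mice and the 5 numbers in the titles of the astrocyte line, which name no animal. Totals per library ranged from 10.1 to 28.6 M counts (astrocyte line), from 32.8 to 50.7 M (heterozygous line) and from 34.6 to 56.7 M (knockout line). Levels are CPM, counts scaled to each library's total after TMM adjustment of that total. Differences are log2 ratios from edgeR's quasi-likelihood test, and a gene was called where the Benjamini-Hochberg adjusted p over all genes tested was under 0.05. Cx3cr1, the fractalkine receptor gene that the Cre replaces, checks the genotype labels: in bound RNA it was 8.21 to 12 CPM over the heterozygous mice and 0.548 to 1.06 CPM over the knockout mice. Astrocyte markers summed to 2800 to 3570 CPM in bound and 1470 to 1750 CPM in unbound RNA of the astrocyte line, and all 21 microglial markers were higher in bound than in unbound RNA of the heterozygous line. Neuronal RNA was abundant in that bound RNA too: 14 neuron markers summed to 10800 to 13100 CPM in bound and 9560 to 10600 CPM in unbound RNA, against 365 to 625 CPM for the microglial markers in bound RNA. Of the neuron markers 4 were called higher and 7 lower in bound RNA, and Nefl, a neurofilament gene, averaged 4500 CPM in bound and 185 CPM in unbound RNA, a larger enrichment than that of any of the 21 microglial markers. Each line is 1 count table, so that line and table cannot be told apart. By label the knockout libraries are of polyA RNA and those of the other 2 lines of total RNA, so that in comparisons with the knockout line the molecule cannot be told apart from the line either. Exons of 12 of the 37 genes overlap another gene, and the strand of counting is not stated: Parp9 and Dtx3l, which share 458 exonic bases on opposite strands, cannot be fully told apart.

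The largest differences of the interferon-induced genes were between the microglial lines and the astrocyte line, in both fractions. All 37 were higher in the heterozygous than in the astrocyte line, both in bound RNA (31% of all genes were called higher) and in unbound RNA (29.7%). The median log2 difference over the 37 was 3.61 in bound and 3.12 in unbound RNA, against -0.06 and -0.02 over all genes tested. The knockout line stood above the astrocyte line in the same way, with 37 of 37 called higher in bound RNA (29.8% of all genes) and in unbound RNA (28.1%), and medians of 3.03 and 2.73. These 2 comparisons share the astrocyte-line libraries.

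Many members were near the limit of detection in the astrocyte line and none was in the microglial lines. The mean was under 0.5 CPM for 11 members in bound and 13 in unbound astrocyte-line RNA, among them Isg15, Oas1a, Ifit1, Usp18 and Mx1. No member had a mean that low in either fraction of the heterozygous or the knockout line. Every heterozygous mouse was above every astrocyte-line number for 37 of 37 genes in both fractions (34.5% of genes in bound and 30.6% in unbound RNA). The knockout mice did so for 36 of 37 in bound RNA (30.7% of genes), all but Oas3, and for 37 of 37 in unbound RNA (28.4%).

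**Figure D1:**
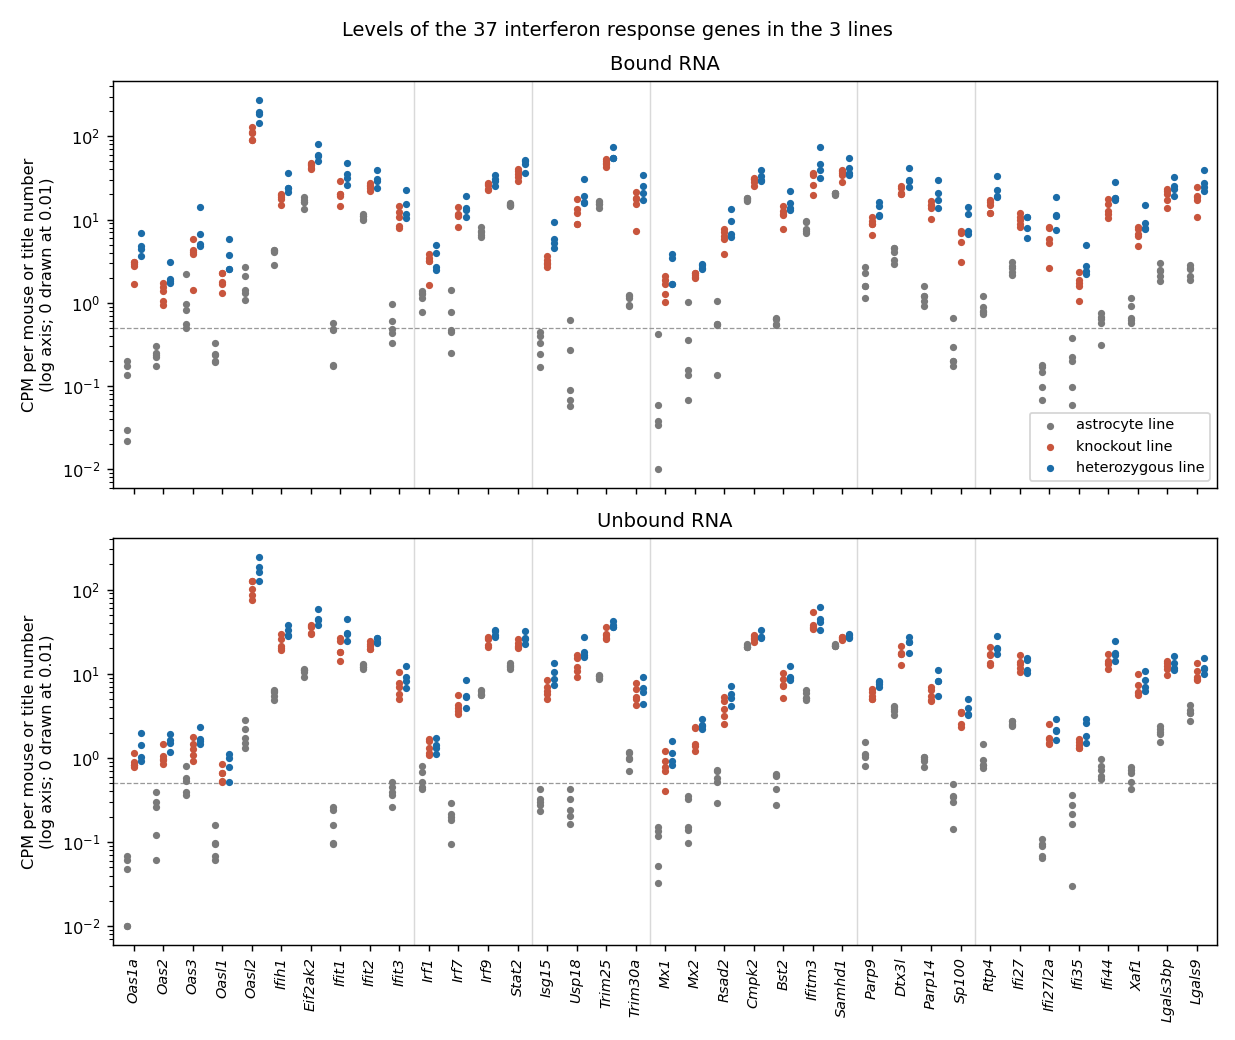
Level of each of the 37 genes per mouse, or per title number in the astrocyte line, as CPM on a log axis, for bound and unbound RNA, with the genes in order of role. The astrocyte-line points lie lowest, except for Oas3 in bound RNA, 11 genes (bound) and 13 genes (unbound) having a mean under 0.5 CPM there, and the heterozygous mice lie mostly above the knockout mice.

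Among the sensors, Oasl2, an OAS-like protein with ubiquitin-like domains, had the largest bound difference. It was 1.72 ± 0.658 CPM (SD, n = 5) in bound astrocyte-line RNA, 200.4 ± 55.4 (SD, n = 4) in the heterozygous line and 106 ± 16.1 (SD, n = 5) in the knockout line. The heterozygous level was 122-fold the astrocyte-line level, a log2 difference of 6.93 (SE 0.22, adjusted p = 2.7e-12), and the groups did not overlap. Ifit1, which binds RNA with viral-type ends, led the unbound RNA, at 0.171 ± 0.0775 CPM (SD, n = 5) in the astrocyte line, 32.3 ± 8.54 (SD, n = 4) in the heterozygous line and 20.4 ± 5.03 (SD, n = 5) in the knockout line. Its log2 difference, heterozygous against astrocyte, was 7.48 (SE 0.22, adjusted p = 3.2e-13), or 178-fold. Ifit1 had 1 to 8 counts per unbound library of the astrocyte line, so the size of that fold rests on few counts.

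The role groups differed in their medians. In bound RNA the median difference was 4.35 for the ISG15 system and TRIM proteins, 3.58 for the sensors, 3.77 for the other induced genes, 3.55 for the PARP9 group, 2.88 for the restriction factors and 1.84 for the signal and transcription factors. Bst2, which tethers virions to the cell surface, differed by 4.73 (SE 0.17, adjusted p = 1e-11), and Ifi27l2a, a small membrane protein, by 6.59 (SE 0.31, adjusted p = 1.5e-10). Usp18, the protease that takes ISG15 off its targets, differed by 6.21 (SE 0.21, adjusted p = 1.5e-12) in unbound RNA. In the astrocyte line Ifi27l2a had 0 to 5 counts per bound library and Usp18 2 to 8 per unbound library, so these 2 sizes rest on few counts. At the low end, named after their values were seen, stood Cmpk2, a mitochondrial nucleotide kinase, with 17.6 ± 0.66 CPM (SD, n = 5) in bound astrocyte-line RNA and 33 ± 4.41 (SD, n = 4) in the heterozygous line, and Samhd1, a dNTP hydrolase, which in unbound RNA was 21.7 ± 0.467 CPM (SD, n = 5) and 28.1 ± 1.26 (SD, n = 4). Members over 4-fold higher were 29 of 37 in bound RNA (2.16% of all genes) and 30 of 37 in unbound RNA (1.47%). In the knockout line they were 26 (1.88%) and 27 (1.47%).

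Scaling by library totals in place of TMM moved the median of all genes to -0.48 in unbound RNA, and with it Cmpk2 to -0.04 (adjusted p = 0.58) and Samhd1 to -0.08 (adjusted p = 0.14) in the heterozygous line. The knockout line gave -0.18 for Cmpk2 (adjusted p = 0.01) and -0.2 for Samhd1 (adjusted p = 0.003) beside a median of all genes of -0.51. The other 35 genes were called higher under both scalings in both lines.

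Microglial markers were higher in bound RNA of the microglial lines, and mixed in unbound RNA. Their summed level over 21 genes was 92.5 to 100 CPM in bound RNA of the astrocyte line, 365 to 625 in the heterozygous line and 209 to 545 in the knockout line. In unbound RNA the sums were 84.9 to 98.7, 68.7 to 86.7 and 66.5 to 75.6 CPM, and 6 of 21 markers were called higher and 8 lower in the heterozygous line. In the fit 11 of the 21 were above 0 there, with a median of 0.02. The part of microglial content in the higher interferon-induced genes was not tested. Tamoxifen, the Cre and the count table also differ between these lines and cannot be told apart.

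Members also differed in which gene was most abundant once levels were divided by exon length. By CPM per kb of exon in bound RNA, Ifitm3, an endosomal membrane protein that blocks viral fusion, ranked the highest of the 37 in all 3 lines, with 12.1 in the astrocyte line, 71.2 in the heterozygous line and 44.7 in the knockout line. In bound RNA of both microglial lines Oasl2, Ifi27l2a and Bst2 came next, with 31.4, 26.3 and 17.9 in the heterozygous line. In the astrocyte line the next were Cmpk2 with 4.23, Eif2ak2 with 3.19 and Ifit2 with 2.75. Ifi27l2a, which ranked the third in the heterozygous line, was at 0.132 ± 0.047 CPM (SD, n = 5) in bound astrocyte-line RNA.

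The genes upstream of the 37 showed the receptor gene Ifnar1 at like levels in bound RNA of the 3 lines, though not in unbound RNA, and the ligands near 0. Ifnb1, the interferon-beta gene, was 0.073 to 0.143 CPM over the heterozygous mice and 0 to 0.116 over the knockout mice in bound RNA. Over the astrocyte-line numbers it was 0 to 0.0443 CPM in bound RNA. In unbound RNA it was at most 0.0127 CPM in the microglial lines and 0 in the astrocyte line. Ifnar1, the receptor's signalling chain, averaged 43 CPM in bound RNA of the astrocyte line, 40.2 in the heterozygous line and 40.6 in the knockout line. Between the heterozygous and astrocyte lines Ifnar1 differed in unbound RNA by -0.29 (SE 0.05, adjusted p = 0.00019).

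Lists of related genes gave the following counts, heterozygous against astrocyte line. Of 41 other interferon-stimulated genes, 34 of 39 tested were called higher in bound and 34 of 36 in unbound RNA, with medians of 1.41 and 1.14. Of 24 genes of the type II interferon response, 16 of 22 and 15 of 21 were called higher, with medians of 2.17 and 2.25, and 4 and 1 lower. The nucleic acid sensing list had 12 of 18 higher in bound and 10 of 18 in unbound RNA, with medians of 1.15 and 0.35. Of all genes 6664 of 21496 were called higher in bound and 6067 of 20406 in unbound RNA. The medians of these lists were above 0, but not every gene was higher. Mavs of the sensing list averaged 7.04 CPM in bound astrocyte-line and 4.17 in bound heterozygous RNA, and H2-Ab1 of the type II list 3.43 and 1.03. Whether the 37 genes differ from these lists was not tested.

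Between the 2 microglial lines, no member passed the test in either fraction, while nearly all were lower in the knockout mice. In bound RNA 0 of 37 genes were called (0.00485% of all genes, which is Cx3cr1 alone), 36 of 37 had a log2 difference below 0 and the median was -0.56, against 0 over all genes. In unbound RNA 0 of 37 were called (0.0143% of all genes), again 36 of 37 were below 0 and the median was -0.39. At an unadjusted p under 0.05, edgeR gave 31 of 37 in bound RNA (4.59% of all genes) and 22 in unbound RNA (4.63%). DESeq2 called 4 in bound RNA (Oas1a, Oasl2, Isg15, Rtp4), of 16 genes called in all, and 1 in unbound RNA (Parp9), of 20. With limma-voom 0 members were called in both, of 1 and 4 genes called in all.

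**Figure D2:**
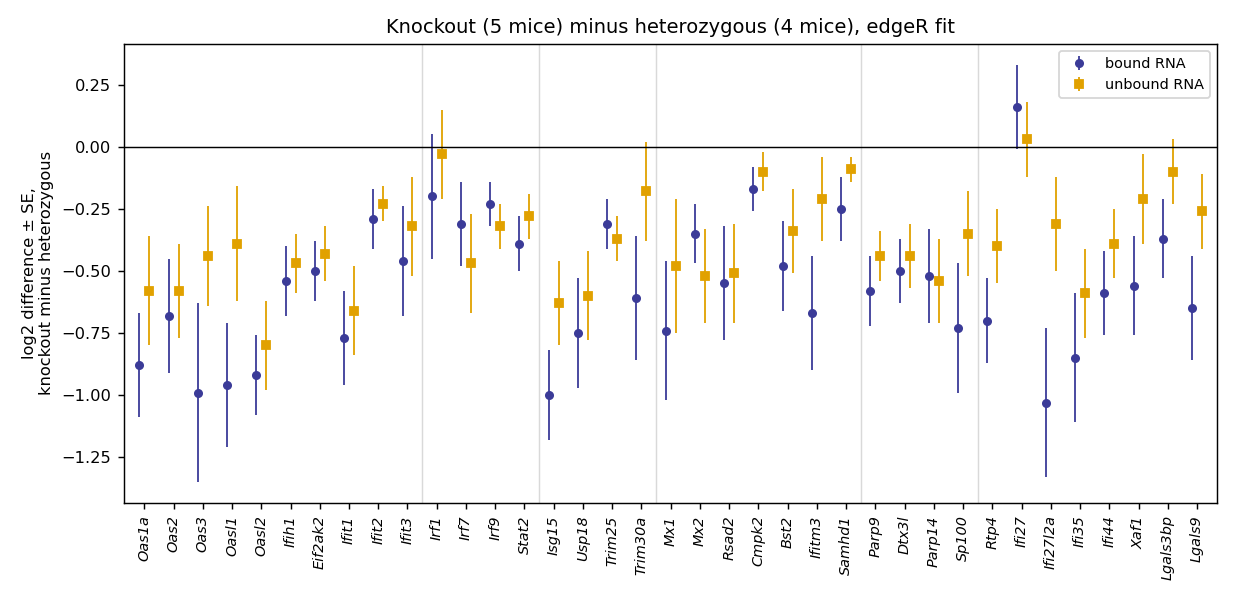
Log2 difference, knockout minus heterozygous mice, for each of the 37 genes in bound and unbound RNA, with bars of 1 SE on each side and genes in order of role. In each fraction 36 of 37 points lie below 0, with medians of -0.56 and -0.39, and no gene passed the test.

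The sensors had the lowest median in bound RNA, -0.73, and 10 of 10 below 0. Oasl2 was 143.7, 187.8, 276.5 and 193.8 CPM in heterozygous mice 14, 15, 17 and 21, and 111.8, 128.7, 90.2, 108.1 and 90.9 CPM in knockout mice 7, 12, 18, 19 and 22. Every heterozygous mouse was above every knockout mouse, and the log2 difference was -0.92 (SE 0.16, adjusted p = 0.23). Oas1a, which makes the 2-5A messenger that activates RNase L, was 4.48, 4.84, 6.98 and 3.6 CPM against 1.67, 2.77, 3.1, 3.05 and 2.9, again without overlap. Its difference was -0.88 (SE 0.21, adjusted p = 0.78). Ifit1 was 26.1, 34.8, 48.2 and 31.9 CPM against 20.2, 29, 14.7, 20.5 and 19, so that knockout mouse 12 lay above heterozygous mouse 14. The difference of Ifit1 was -0.77 (SE 0.19, adjusted p = 0.78).

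The remaining sensors among the genes with values per mouse were the RNA helicase Ifih1 (MDA5), the kinase Eif2ak2 (PKR), which stops translation, and Oasl1, which restrains Irf7 translation. Ifih1 was 21.4, 24, 36.3 and 24.2 CPM in the heterozygous mice and 15.1, 19.8, 17.6, 20.1 and 18.6 in the knockout mice. Eif2ak2 was 50.2, 57.5, 81.9 and 59 CPM against 41.3, 47.2, 46.1, 45.7 and 40.0. Oasl1 was 2.53, 3.74, 5.82 and 2.54 CPM against 1.33, 2.28, 1.69, 2.31 and 1.77. None of these 3 overlapped between genotypes, and in each the highest heterozygous value was that of mouse 17. Their log2 differences were -0.54 (SE 0.14), -0.5 (SE 0.12) and -0.96 (SE 0.25), with adjusted p of 0.79, 0.78 and 0.79.

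The ISG15 system and TRIM proteins had a median of -0.68. Isg15, the ubiquitin-like modifier, was 4.54, 5.21, 9.22 and 5.92 CPM in the heterozygous mice and 2.96, 3.02, 3.25, 3.6 and 2.69 CPM in the knockout mice. The groups did not overlap, and the difference was -1 (SE 0.18, adjusted p = 0.3). Trim25, the ligase that ubiquitinates RIG-I, was 54.5, 54.6, 75 and 55.5 CPM against 43.2, 54.1, 45.9, 50.1 and 47.7. Heterozygous mouse 14 and knockout mouse 12 nearly met, while mouse 17 stood well above the other 3 heterozygous mice.

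In the PARP9 group, with a median of -0.55, Parp9, which pairs with the ubiquitin ligase Dtx3l, was 11.1, 14.5, 16.3 and 11.5 CPM in the heterozygous and 6.59, 10.6, 8.77, 9.67 and 8.89 CPM in the knockout mice. The difference was -0.58 (SE 0.14, adjusted p = 0.78), without overlap. Rtp4, a Golgi chaperone for receptors and one of the other induced genes (median -0.62), was 18.8, 22.4, 33.2 and 19.4 CPM against 12.1, 16.2, 14.9, 17.2 and 11.9. Its difference was -0.7 (SE 0.17, adjusted p = 0.78). The restriction factors had a median of -0.48 and the signal and transcription factors the smallest, -0.27. Ifi27, a small membrane protein, was the 1 gene above 0, with 0.16 in bound and 0.03 in unbound RNA.

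In unbound RNA the direction was the same for these genes. Parp9 was 7.57, 6.91, 8.13 and 8.07 CPM in the heterozygous mice and 5.02, 6.55, 5.07, 6.08 and 5.51 in the knockout mice, a difference of -0.44 (SE 0.1, adjusted p = 0.54) without overlap. Oasl2 was 126.3, 160.9, 247.2 and 185.4 CPM against 127.2, 125.6, 75.7, 100.7 and 87.2, a difference of -0.8 (SE 0.18, adjusted p = 0.54). Here knockout mouse 7 lay above heterozygous mouse 14. Trim25 differed by -0.37 (SE 0.09, adjusted p = 0.65) and Ifih1 by -0.47 (SE 0.12, adjusted p = 0.77). The role medians ran from -0.49 for the ISG15 system to -0.28 for the other induced genes.

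Counted over mice, 11 genes in bound RNA had every heterozygous mouse above every knockout mouse: Eif2ak2, Ifih1, Isg15, Mx2, Oas1a, Oas2, Oasl1, Oasl2, Parp9, Rtp4 and Trim25. Of all genes 0.805% did so. In unbound RNA the count was 2, Irf9 and Parp9 (0.707% of all genes). Leaving out mouse 17 left the counts at 11 and 2. Leaving out a heterozygous mouse cannot lower such a count, so this does not test the part of mouse 17.

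Microglial markers moved with the same contrast. In bound RNA 21 of 21 markers were below 0, with a median of -0.36 and only Cx3cr1 called, and their sums were 365 to 625 CPM in heterozygous and 209 to 545 CPM in knockout mice. In unbound RNA 20 of 21 were below 0, with a median of -0.19, and the sums were 68.7 to 86.7 and 66.5 to 75.6 CPM. Fewer cells of a type and less RNA per cell cannot be told apart in such libraries, and the part of the microglial content in the lower interferon-induced genes was not tested. Ifnar1 differed by 0.01 (SE 0.06, adjusted p = 1) in bound RNA. The list of other interferon-stimulated genes had 38 of 41 below 0, with a median of -0.34.

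The size of the genotype difference changed with mouse 17 and with the libraries titled deprived. Without mouse 17 the median over the 37 genes was -0.37 in bound and -0.26 in unbound RNA. With control libraries alone, which by title hold no library of mouse 17, it was -0.14 and -0.12, with 8 and 16 of 37 genes above 0.

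In the heterozygous line most of the genes were highest in the same mouse, while in the knockout line the mouse lowest for most genes differed between fractions. How far the genes vary together was not tested. Mouse 17 was the highest of the 4 heterozygous mice for 36 of 37 genes in bound RNA (24.7% of all genes) and for 35 of 37 in unbound RNA (20.3%). It was the highest of all 9 microglial-line mice for 35 (12.5% of all genes) and 34 (7.74%). The mean log2 CPM over the 37 genes in bound RNA was 4.43 in mouse 17 and 3.66, 3.93 and 3.67 in mice 14, 15 and 21. In the knockout line it was 2.98 in mouse 7, 3.56 in mouse 12, 3.4 in mouse 18, 3.57 in mouse 19 and 3.34 in mouse 22, all below the lowest heterozygous mouse. In unbound RNA these means overlapped, with 3.02, 3.19, 3.6 and 3.16 in heterozygous mice 14, 15, 17 and 21 and 2.85, 3.19, 2.65, 2.89 and 2.78 in knockout mice 7, 12, 18, 19 and 22. Mouse 7 was the lowest knockout mouse for 24 of 37 genes in bound RNA (24.5% of all genes) but for 9 in unbound RNA (19.6%), and its summed microglial markers in bound RNA were the lowest of the 9 mice. In unbound RNA mouse 12 was the highest knockout mouse for 25 of 37 genes (20.3% of all genes) and mouse 18 the lowest for 21 (22.4%).

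Deprivation was labelled in the titles, and in the heterozygous line the titles and the side letters of the pieces differ. Left and right pieces of mice 14 and 15 are titled deprived and control, as the lesion side gives, but both pieces of mouse 17 (17L, 17R) are titled deprived and both pieces of mouse 21 (21L, 21R) control. The title contrast therefore also compares mouse 17 with mouse 21, and the 4 pieces of a group come from 3 mice. In the astrocyte line the titles give no mouse or side.

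By title, the interferon-induced genes were higher in deprived than in control heterozygous cortex. In bound RNA 27 of 37 were called, all higher (10.3% of all genes were called, 5.52% higher), all 37 were above 0 and the median was 0.64. In unbound RNA 5 of 37 were called higher (3.75% of all genes, 2.7% higher), 36 were above 0 and the median was 0.45. All 8 other induced genes were called in bound RNA, as were 6 of 7 restriction factors, 6 of 10 sensors, 3 of 4 genes of the PARP9 group, 2 of 4 of the ISG15 system and TRIM proteins and 2 of 4 signal and transcription factors.

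Lgals9, the galectin-9 gene, had the smallest p in bound RNA. It was 20.1, 22.9, 21.1 and 22.8 CPM in control pieces 14R, 15R, 21L and 21R, and 28.1, 31.9, 38.6 and 40.1 CPM in deprived pieces 14L, 15L, 17L and 17R. The groups did not overlap, and the log2 difference was 0.67 (SE 0.11, adjusted p = 0.0027). Ifitm3 was 31, 40.9, 31.1 and 32.1 CPM against 47.7, 51.6, 79.8 and 70.7, a difference of 0.89 (SE 0.15, adjusted p = 0.003). Sp100, a scaffold of nuclear bodies, was 5.14, 7.12, 7.99 and 5.47 CPM against 9.27, 15.5, 14.7 and 13.5, a difference of 1.04 (SE 0.17, adjusted p = 0.0031). In these 3 genes each deprived piece was above each control piece. Oas3 had the largest difference among the leading genes, with 3.13, 4.48, 6.18 and 3.85 CPM against 6.33, 8.78, 12.8 and 15.6, and a log2 difference of 1.3 (SE 0.26, adjusted p = 0.008).

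Among the remaining leaders in bound RNA were Ifi27l2a with 0.92 (SE 0.15, adjusted p = 0.003), Trim30a with 0.73 (SE 0.12, adjusted p = 0.0036), Ifi35 with 1.05 (SE 0.2, adjusted p = 0.0067) and the galectin-3 binding protein Lgals3bp with 0.57 (SE 0.11, adjusted p = 0.0067). In unbound RNA the 5 called genes were Ifitm3 with 0.78 (SE 0.13, adjusted p = 0.0055), Xaf1, an antagonist of XIAP, with 0.75 (SE 0.13, adjusted p = 0.0063), Sp100 with 0.88 (SE 0.16, adjusted p = 0.007), Trim30a with 0.79 (SE 0.15, adjusted p = 0.012) and Lgals3bp with 0.53 (SE 0.11, adjusted p = 0.019). Unbound Xaf1 was 5.42, 6.24, 7.65 and 5.23 CPM in the control and 8.4, 10.4, 10.8 and 10.6 CPM in the deprived pieces.

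**Figure D3:**
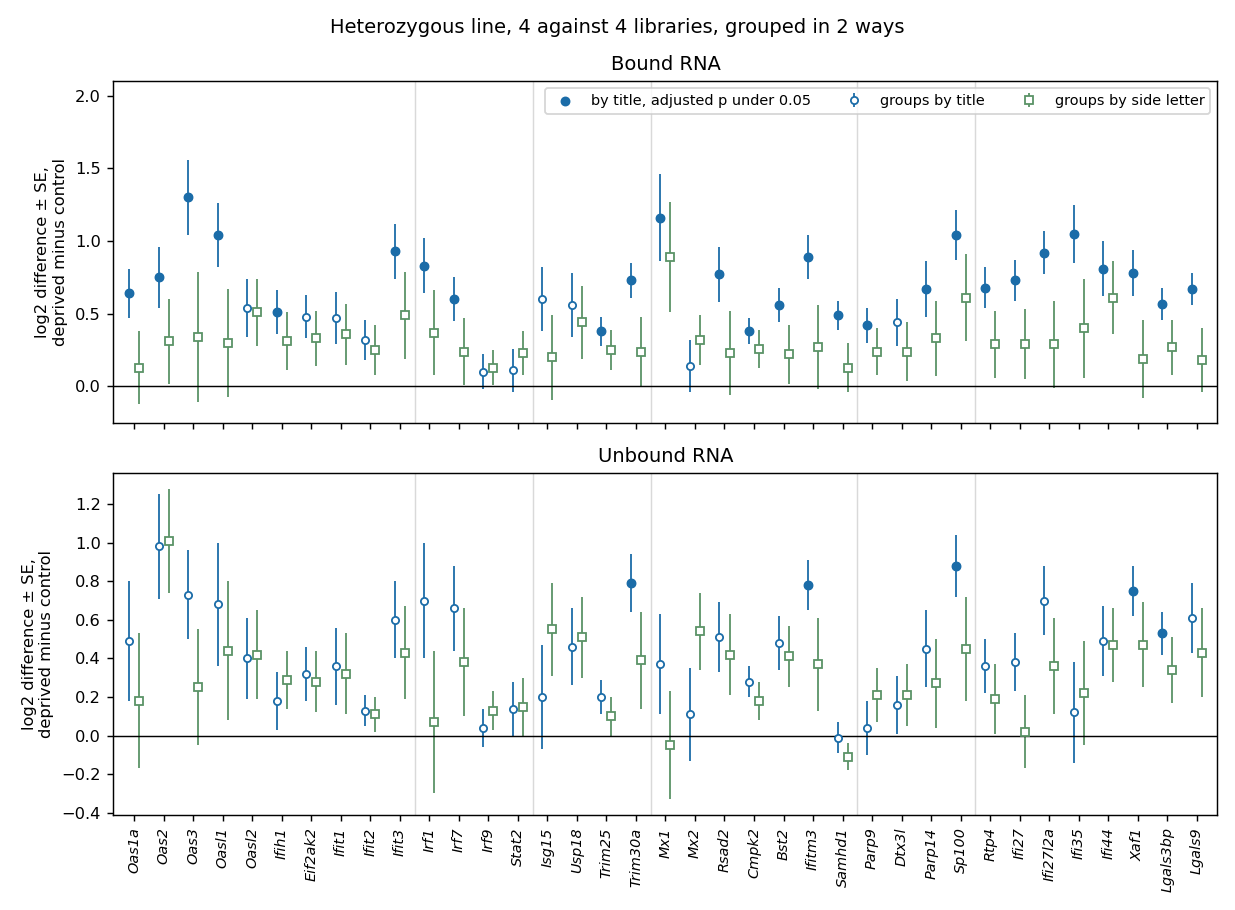
Log2 difference, deprived minus control, for each of the 37 genes in bound (top) and unbound RNA (bottom) of the heterozygous line, with libraries grouped by title (circles, filled where the adjusted p was under 0.05) and by side letter (squares), and bars of 1 SE. In bound RNA the points by title have a median of 0.64 and those by side letter a median of 0.29, and in unbound RNA the medians are 0.45 and 0.32.

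The calls rested on the grouping by title. Grouped by side letter, 0 of 37 genes were called by edgeR in either fraction, although 37 of 37 in bound RNA (median 0.29) and 35 of 37 in unbound RNA (median 0.32) lay above 0. With side letter and mouse together in the fit, 0 were called, 21 and 19 members had an unadjusted p under 0.05 (6.84% and 5.96% of all genes), and DESeq2 was not run on that grouping. With mice 14 and 15 alone, whose titles and letters agree, 1 gene was called in bound RNA (Ifi44) and 0 in unbound RNA. With the mouse as a replicate block and the titles kept, 12 were called in bound RNA and 1 in unbound RNA. In that fit mice 17 and 21, each under 1 title, give no information on the difference. It therefore rests on mice 14 and 15 too, and is not a separate check: Oas3 in bound RNA was 0.99 in both fits. Leaving out piece 17L left 17 calls in bound RNA, and leaving out piece 21L raised those in unbound RNA to 14. For these alternatives the share of all genes called is not given here, so the counts cannot be read as particular to the members.

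Markers of several cell types moved with the title contrast. Of 9 border macrophage and monocyte markers tested in bound RNA, 6 were called higher (median 1.38). The sum over all 10 markers of that list was 10.1 CPM in control piece 15R and 35.3 to 43.2 CPM in the other control pieces. In deprived pieces it was 63.3 to 86.4 CPM, and none of the markers was at 0 in either group. Microglial markers were called higher for 9 of 21, with sums of 333 to 492 and 570 to 669 CPM, and astrocyte markers for 7 of 16, with sums of 933 to 1010 and 1090 to 1130 CPM. In unbound RNA 3 of 7 border macrophage and monocyte markers, 1 of 21 microglial and 4 of 16 astrocyte markers were called higher. Of 14 neuron markers 1 was called higher and 3 lower in bound RNA, and 2 higher and 3 lower in unbound RNA, where their sums were 10100 to 11400 CPM in control and 9030 to 9830 CPM in deprived pieces. Of 10 mural and fibroblast markers 1 was called higher in bound and 0 in unbound RNA, where all 10 were above 0 and the sums were 163 to 253 and 238 to 322 CPM. The part of these cell types in the higher interferon-induced genes was not tested. The type II interferon response list had 9 of 22 genes called higher in bound RNA, with a median of 0.74.

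Compared piece by piece within a mouse, the left cortex had the higher level of most members in 4 of 4 heterozygous and 2 of 5 knockout mice in bound RNA. Of the pieces of a heterozygous mouse, the left piece had the higher CPM for 36 of 37 genes in mouse 14 (50.6% of all genes), 37 in mouse 15 (49.9%), 24 in mouse 17 (48.3%) and 27 in mouse 21 (47.3%). In knockout mice 7, 12, 18, 19 and 22 the counts were 13, 11, 13, 24 and 33 (50.8%, 50%, 49%, 49.7% and 48.9% of all genes). In unbound RNA they were 24, 34, 26 and 31 in heterozygous mice 14, 15, 17 and 21 (42.3%, 43.2%, 48.5% and 47.8% of all genes) and 11, 9, 25, 23 and 21 in the knockout mice (54.7%, 53.9%, 55%, 52% and 47.6%). The left piece was the higher in every heterozygous mouse for 17 genes in bound (6.63% of all genes) and 15 in unbound RNA (5.79%), and in every knockout mouse for 0 genes in either fraction (2.87% and 4.17%). The high level of mouse 17 was seen on both sides.

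**Figure D4:**
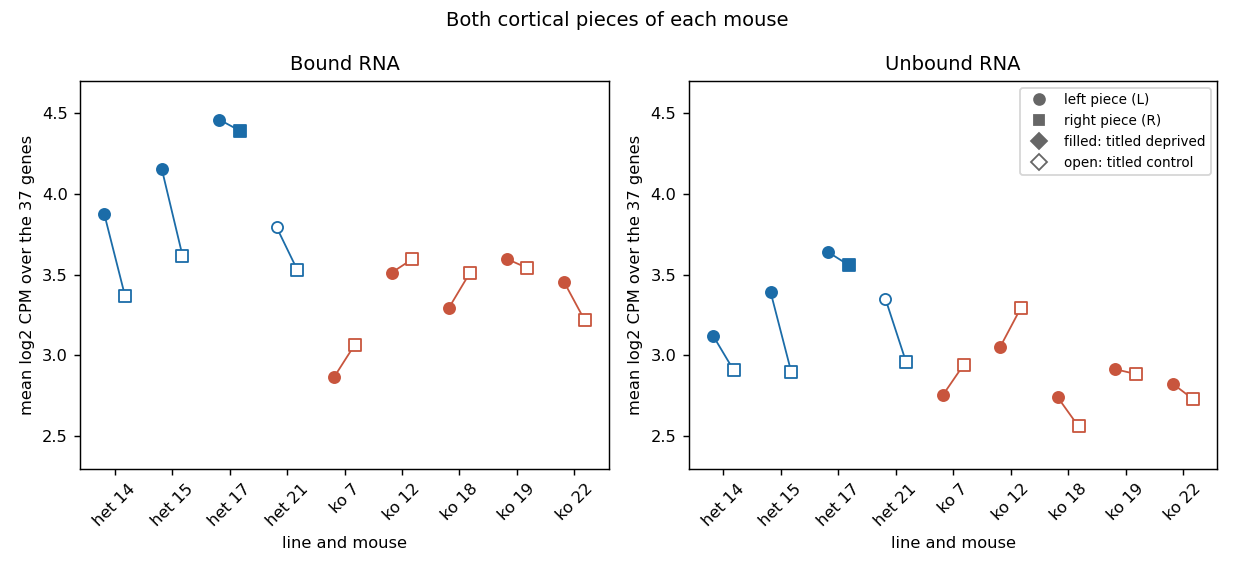
Mean log2 CPM over the 37 genes in each left and right piece of cortex, by mouse, for the microglial lines in bound and unbound RNA, filled where the title says deprived. Both pieces of mouse 17 lie highest, and the left piece is above the right piece in the heterozygous mice but not throughout the knockout mice.

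In the knockout line no interferon-induced gene passed the deprivation test. In bound RNA 0 of 37 were called (0.00546% of all genes), with a median of -0.04, and in unbound RNA 0 of 37 (0.038%), with a median of -0.05. edgeR gave 0 members at an unadjusted p under 0.05 in either fraction (3.77% and 4.74% of all genes), and DESeq2 and limma-voom also called 0. The smallest p in bound RNA was that of Ifi27, which was 9.34, 13.1, 9.95, 10.3 and 10.7 CPM in the right pieces of mice 7, 12, 18, 19 and 22 and 6.93, 10.7, 7.76, 9.61 and 10.7 CPM in their left pieces. These groups overlap, while within a mouse the left piece was the lower in mice 7, 12, 18 and 19 and alike in mouse 22. In the fit without the mouse as a block the difference was -0.23 (SE 0.14, adjusted p = 1). In unbound RNA Lgals3bp had the smallest p, with -0.24 (SE 0.14, adjusted p = 1).

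In the astrocyte line 25 members passed the filter on low counts in bound RNA and 24 in unbound RNA, and 0 were called in either (0% of all genes). Medians were 0.11 and 0.04. At an unadjusted p under 0.05 edgeR gave 2 members in bound RNA (6.03% of all genes) and 0 in unbound RNA (6.19%), and DESeq2 and limma-voom called 0. These 2 were Lgals9 with 0.57 (SE 0.23, adjusted p = 0.78) and Bst2 with 0.96 (SE 0.4, adjusted p = 0.8). The members left out by the filter are those near the limit of detection in this line.

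The test of the difference itself, the deprivation effect of the knockout line minus that of the heterozygous line by title, called 1 gene in bound RNA (0.51% of all genes) and 2 in unbound RNA (1.79%), all lower. Ifi27 in bound RNA had an effect of 0.73 (SE 0.14) in the heterozygous and -0.23 (SE 0.14) in the knockout line, a difference of -0.96 (SE 0.21, adjusted p = 0.041). In unbound RNA Sp100 had effects of 0.88 and -0.15, a difference of -1.03 (SE 0.26, adjusted p = 0.046), and Lgals3bp effects of 0.53 and -0.24, a difference of -0.77 (SE 0.2, adjusted p = 0.049). The median over the 37 genes was -0.68 in bound and -0.53 in unbound RNA. With the heterozygous libraries grouped by side letter, 0 were called in either fraction, and with the mouse as a replicate block 1 in each (Ifi27 and Sp100). Leaving out 1 library at a time gave 0 to 8 calls in bound and 0 to 4 in unbound RNA. The share of all genes called under these alternatives is not given here either.

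The last comparison set RNA pulled down on tagged ribosomes (bound) against the unbound rest of the lysate for the 37 genes. It does not measure the share of a gene's RNA on ribosomes, since untagged ribosomes stay in the unbound rest. In the heterozygous line 24 were called higher and 3 lower in bound RNA (62.6% of all genes were called, 31.8% higher and 30.8% lower), with a median of 0.53. In the knockout line 22 were higher and 4 lower (61.9% called, 31.6% higher and 30.4% lower), with a median of 0.39. In the astrocyte line 8 of 26 tested were higher and 4 lower, with a median of 0.17. Of all 18324 genes tested there 59.1% were called, 5778 higher and 5060 lower. Microglial markers in the heterozygous line had a median of 2.77, with a range of 1.57 to 3.38.

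Ifi27l2a had the largest enrichment in the heterozygous line, with 2.42 (SE 0.12, adjusted p = 7.5e-13), and was 12.2 ± 4.69 CPM in bound and 2.19 ± 0.538 CPM in unbound RNA (SD, n = 4). Trim30a, a TRIM protein of macrophages, was enriched by 1.87 (SE 0.11, adjusted p = 3.7e-12), Oas3 by 2.01 (SE 0.19, adjusted p = 1.2e-08), Oasl1 by 2.03 (SE 0.2, adjusted p = 1.4e-08) and Oas1a by 1.86 (SE 0.18, adjusted p = 1.6e-08). These 5 lie within the range of the microglial markers. The 3 genes lower in bound RNA were Isg15 with -0.76, Ifi27 with -0.59 and Ifih1 with -0.32. Isg15 was 6.22 ± 2.08 CPM in bound and 10.1 ± 2.6 CPM in unbound RNA (SD, n = 4). In the knockout line the same 3 genes and Ifitm3 were lower, with -1.09 for Isg15 and -0.4 for Ifitm3.

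**Figure D5:**
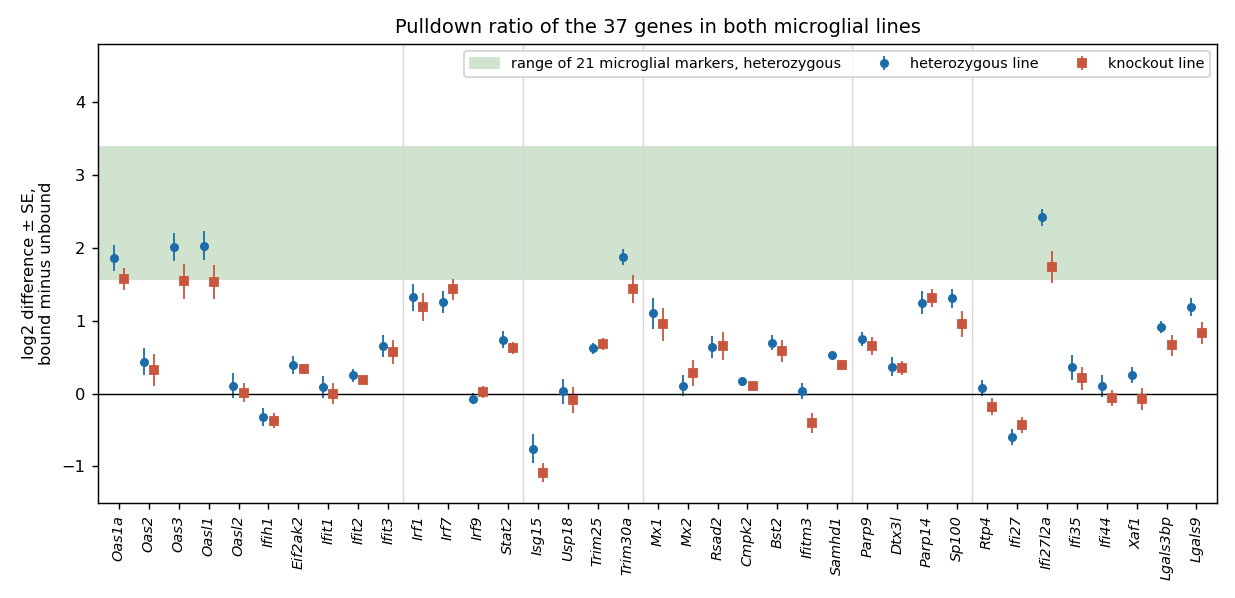
Log2 difference, bound minus unbound RNA, for each of the 37 genes in the heterozygous and knockout lines, with bars of 1 SE and the range of 21 microglial markers shaded. Most genes lie between 0 and the microglial markers' median of 2.77, with Ifi27l2a highest at 2.42 and Isg15 lowest at -0.76 in the heterozygous line.

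The enrichment was not shown to differ between the 2 microglial lines for any member. The test of the difference called 0 of 37 (0% of all genes), with 0 members at an unadjusted p under 0.05 by edgeR (2.8% of all genes), and 0 by DESeq2 and by limma-voom. The median difference was -0.15, and the smallest p was that of Ifi27l2a with -0.72 (SE 0.4, adjusted p = 1).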

How the data were processed

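Bound and unbound RNA of mouse barrel cortex was measured in 56 libraries. The authors deposited unnormalised counts of reads for each Ensembl gene in a table for each line, with 47971, 45682 and 55385 genes. The tools featureCounts 2.0.0, HISAT2 2.2.0, cutadapt 2.9, Trim Galore 0.6.4 and FastQC 0.11.9 and the builds GRCm38 and mm10 are named in the submitters' processing notes. The strand of counting is not given in the sources used here. Per the labels' protocols, cDNA was made by NuGEN Ovation V2 amplification and libraries with Nextera XT, without molecular identifiers.

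Libraries were grouped by title. The number in a piece's name was read as the mouse and its letter as the side. The main test of the counts was that of edgeR 4.0.16 under R 4.3.3 (TMM scaling, filterByExpr, quasi-likelihood F test, two-sided, adjusted p under 0.05 over all genes tested). Lines were compared on counts summed per mouse (4 heterozygous, 5 knockout) or per title number of the astrocyte line (5), deprived and control libraries within a line and fraction, and bound and unbound libraries over all groups of a line, with no covariate. CPM used TMM library sizes, and log2 CPM a prior count of 2. The procedure was tested on simulated counts. Alternatives were DESeq2 1.42.0, limma 3.58.1 voom, other scaling, no filter on low counts, sex as a term, the replicate block, other groupings of the heterozygous libraries and leaving out each mouse or library. The grouping by side letter together with the block was chosen after seeing the data. The design text gives no statistical model.

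Members and gene lists were chosen with earlier results of these data known. Of the 37 genes, those that passed a comparison were named up to 12 by smallest p, or the 4 with the smallest p where fewer than 4 passed. Values per mouse between the microglial lines were given for the 10 members with the smallest p in that comparison in either fraction, so they are not a sample of the 37, and Cx3cr1, Ifnar1 and Ifnb1 were always named. The result of another gene is not reported here. Markers of neurons, endothelium, mural cells, oligodendrocyte lineage, lymphoid cells and plasmacytoid dendritic cells were also summed. Libraries of 1 mouse pair by animal in the microglial lines. After group means were removed, their correlation over genes was above 0.1 in 4 of 5 knockout mice in bound and 3 of 5 in unbound RNA, and in 1 of the 2 heterozygous mice whose pieces fall in both groups. Astrocyte-line numbers name no animal, and theirs was above 0.1 for 0 of 5 numbers in bound and 3 of 5 in unbound RNA. Gene positions came from GENCODE vM21 and promoters from RefSeq on GRCm38.p6.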

Additional observations from a re-analysis of the deposited data

Results flagged for a closer look

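In 66 groups of 4 or 5 mice or title numbers, the CPM of 10 members (those with the smallest p between the microglial lines) and the mean log2 CPM over the 37 genes were searched for a sample far from the others, which chance gives in about 1 in 20 groups. There were 4. In bound RNA of the astrocyte line Ifih1 was 2.85 CPM in number 1 and 4.1 to 4.36 in the others. In unbound RNA of that line Rtp4 was 1.48 CPM in number 3 and 0.753 to 0.941 in the others. In bound RNA Trim25 was 75 CPM in heterozygous mouse 17 and 54.5 to 55.6 in the other 3 mice. Oas1a was 1.67 CPM in knockout mouse 7 and 2.77 to 3.1 in the other 4 knockout mice.

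The deprivation effect, by title, differed between the knockout and heterozygous lines for 3 genes by edgeR's test of the difference. In bound RNA Ifi27 had a log2 difference of -0.96 (adjusted p = 0.041). In unbound RNA Sp100 had -1.03 (adjusted p = 0.046) and Lgals3bp -0.77 (adjusted p = 0.049). None of these 3 was called with the heterozygous libraries grouped by side letter.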

How the results depend on the processing

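The counts of members called and their medians were recomputed under each alternative. Knockout against heterozygous, bound RNA gave 4 calls without the filter on low counts, 4 with DESeq2 and 2 with each library as a unit, against 0, and unbound RNA gave 2 without the filter and 1 with DESeq2, against 0. Control libraries alone moved these medians to -0.14 and -0.12, and leaving out 1 mouse gave 0 to 1 calls in bound (Oasl2, without heterozygous mouse 14) and 0 in unbound RNA, with medians of -0.67 to -0.37 and -0.5 to -0.26. Heterozygous against astrocyte line, the median was 3.11 in bound and 2.74 in unbound RNA with control libraries alone, and 2.66 in unbound RNA by library totals; leaving out 1 unit gave 3.37 to 3.9 and 2.96 to 3.29. Knockout against astrocyte line, library totals gave 2.81 and 2.25, each library as a unit 2.53 in unbound RNA and the mouse as a random block 2.56; leaving out 1 unit gave 2.96 to 3.24 and 2.57 to 2.8. All 37 genes were called when any 1 unit was left out of these 4 comparisons.

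For deprivation in the heterozygous line, against 27 and 5 calls by title, the replicate block gave 12 in bound and 1 in unbound RNA, side letters 0 and 0, side letters with the block 0 and 0, and mice 14 and 15 alone 1 and 0. With titles and the replicate block the difference also rests on mice 14 and 15. Side letters gave a bound median of 0.29, with or without the block. Unbound RNA gave 22 calls without the filter, 12 with DESeq2 and 11 with limma-voom. Over all genes edgeR called 678 there, DESeq2 1170 and limma-voom 986. Leaving out 1 library gave 17 to 31 calls (medians 0.56 to 0.72) in bound and 4 to 14 (0.33 to 0.57) in unbound RNA. For the difference of that effect between the lines, bound RNA gave 9 calls without the filter, 5 with DESeq2 and 0 by side letter, without pieces 17R and 21L, or by side letter with the block, with medians of -0.29 by side letter and -0.32 with the block. Unbound RNA gave 4 without the filter, 1 with limma-voom, 1 with the replicate block and 0 by library totals, by side letter, without 17R and 21L, or by side letter with the block. Leaving out 1 library gave 0 to 8 calls (medians -0.83 to -0.56) in bound and 0 to 4 (-0.65 to -0.32) in unbound RNA. The median enrichment in bound RNA of the knockout line was 0.64 by library totals. Over all genes the difference between the lines was called by edgeR for 100 in bound and 345 in unbound RNA. DESeq2 called 734 and 823, and limma-voom 160 and 280. For the other alternatives the counts over all genes are not given here, so their changes cannot be read as particular to the members. The cause of these changes was not tested. The replicate block changed no other count of calls by over 1.5 times.

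No gene named by smallest p changed direction under any of these alternatives. Library totals turned Cmpk2 to -0.04 and -0.18 and Samhd1 to -0.08 and -0.2 in unbound RNA of the heterozygous and knockout lines against the astrocyte line. With 4 or 5 mice per line and library totals down to 10.1 M counts, members under 0.5 CPM in the astrocyte line are measured with few counts, and 12 of 37 did not pass the filter there in bound RNA.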
